A study of Mus musculus with 16 samples.

Results

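Acetylation of histone H3 at lysine 27 (H3K27ac), a mark of active promoters and enhancers, was compared in mouse liver at 4 genes that carry thyroid hormone: Ttr, Alb and Serpina7, which encode the plasma carriers transthyretin, albumin and thyroxine-binding globulin, and Slc16a10, which encodes a membrane transporter. A region of the deposited peak counts was given to one of them when its midpoint lay inside the gene, or lay in no gene and within 50 kb with it as the nearest protein-coding gene. This gave 69 of the 52645 regions: 17 for Ttr, 18 for Alb, 1 for Serpina7 and 33 for Slc16a10. They belong to 4 of the 11471 genes that received any region. All 69 passed the filter on low counts. The livers came from wild-type (WT) mice and mice lacking the nuclear receptor corepressor NCoR1 (KO), both labelled with the strain background C57BL/6J. From 6 weeks of age they either stayed on chow or received a low-iodine diet with 0.15% propylthiouracil (PTU/LID), which blocks thyroid hormone synthesis, for 3 weeks, and all livers were taken on day 21. The 4 groups, WT chow, WT PTU/LID, KO chow and KO PTU/LID, hold 3 libraries each, named here by their titles (Chow_WT_27ac_96 is a WT chow library, Ptulid_NCoRKO_27ac_211 a KO library on PTU/LID).

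Thyroid hormone is poorly soluble, and most of it travels in blood bound to thyroxine-binding globulin, transthyretin and albumin, all secreted by hepatocytes. Transthyretin also carries retinol through its partner, retinol-binding protein, and albumin binds fatty acids, bilirubin and many drugs. Cells take the hormone up through membrane transporters, among them the protein of Slc16a10, which also moves aromatic amino acids. Inside the cell the hormone binds nuclear receptors, which recruit corepressors such as NCoR1 with their histone deacetylases when no hormone is bound. The labels do not say how NCoR1 was deleted or in which cells, do not give the sex of the mice, and do not tell whether the libraries of a group are different animals, so the spread behind the p-values may be technical. No thyroid hormone levels were used.

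The sequences before the annotated starts of Alb and Serpina7 are shown because regions of the data overlap both windows. At Serpina7 the overlapping region is one that the rule gives to the neighbouring 4930513O06Rik. The region inside Serpina7, which had the largest fitted change with diet among the member regions, ends 44 bases from the window. The sequences come from RefSeq (GRCm38.p6), whose promoter table matched 3 of the 4 genes. They run 5′ to 3′ over the 250 bases before the start. The Alb window is chr5:90460620-90460869 on the plus strand. The Serpina7 window is chrX:139085237-139085486 on the minus strand. Capitals mark matches, on either strand, to GTTAAT (part of the site of the hepatocyte factor HNF1), CCAAT or TATAAA.
Alb: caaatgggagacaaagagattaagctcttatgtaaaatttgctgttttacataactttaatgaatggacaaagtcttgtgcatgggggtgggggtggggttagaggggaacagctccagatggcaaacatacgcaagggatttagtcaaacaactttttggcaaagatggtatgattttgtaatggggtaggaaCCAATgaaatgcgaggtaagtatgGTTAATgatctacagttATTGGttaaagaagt
Serpina7: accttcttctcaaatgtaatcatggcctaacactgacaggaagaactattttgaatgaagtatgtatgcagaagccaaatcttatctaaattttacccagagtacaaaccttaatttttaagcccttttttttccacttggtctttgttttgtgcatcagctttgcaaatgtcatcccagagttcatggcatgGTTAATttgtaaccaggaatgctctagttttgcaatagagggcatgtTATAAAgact

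Both windows hold GTTAAT close to the start, from base -32 to -27 in Alb and from -57 to -52 in Serpina7. These letters occur in 6.43% of all 32851 promoter windows of the same length. CCAAT, found in 33.8% of windows, lies at -56 to -52 in Alb and again, on the other strand, at -15 to -11. TATAAA, in 12.4% of windows, lies at -10 to -5 in Serpina7. Of 2 listed starts of Serpina7, only the one at base 139085236, the annotated 5′ end of the gene, was used, and its positions depend on that choice. The Slc16a10 window is of another kind: its GC content is 64.4%, against 39.2% in Alb, 36.0% in Serpina7 and a median of 52.4%, and it holds 21 CpG dinucleotides against 2 and 0. It has GTTAAT at -232 to -227 and CCAAT on either strand at -150 to -146 and -108 to -104. AGGTCA, the core site of nuclear receptors that include the thyroid hormone receptor, its direct repeat spaced by 4 bases, and TGTTTAC, a FOXA motif, were searched on both strands and are not in these 3 windows; they occur in 14.0%, 0.0152% and 3.17% of windows. A region of the data covers 70 bases of the Alb window, another covers the distal part of the Serpina7 window, while the region nearest the Slc16a10 start ends 126 bases short of its window. A match of letters is a description of the window and not a bound site.

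The libraries held 2965505 to 7416187 counts in regions. KO libraries, at 3719180 to 7416187, were mostly deeper than WT libraries, at 2965505 to 5831372. Mitochondrial regions took from 0.717% to 17.2% of a library's counts, and over 1.5% in 7 libraries: all 3 of KO chow, Chow_WT_27ac_96, Chow_WT_27ac_99, Ptulid_WT_27ac_135 and Ptulid_NCoRKO_27ac_211. Levels are CPM, counts scaled to a common library size, with TMM factors, so they are relative to the other regions. Regions at Ncor1 itself did not separate the genotypes: the gene's sum was 55.2 ± 9.17 CPM in WT and 54.1 ± 9.56 in KO on chow, and 54.7 ± 7.38 and 54.2 ± 6.33 on PTU/LID (SD, n = 3). Of its 6 regions 0 passed in edgeR in either genotype comparison, with 1 and 0 at an unadjusted p under 0.05 on chow and on PTU/LID, so these counts do not check the knockout label. All 12 hepatocyte markers had regions, with a summed level of 4519 to 6890 CPM. That list includes Alb and Ttr, and without them the sum was 3494 to 5523 CPM. Of the defining markers of other cells, Clec4f and Vsig4 (Kupffer), Lrat and Reln (stellate), Krt19 and Epcam (cholangiocyte) and Cd3e (lymphocyte) had no region, while 10 of 11 endothelial markers had one. The endothelial sum was 1043 to 1092 CPM in WT chow and 857 to 980 in WT PTU/LID, 810 to 855 in KO chow and 794 to 859 in KO PTU/LID. This sum was highest in WT chow, but not every marker followed it. Of the 10, 4 fell with diet in WT and 3 were lower in KO on chow, where 7.81% and 4.1% of all genes passed. The defining marker Stab2 had 202.9, 251.8 and 211.9 CPM in WT chow and 205.1, 251.6 and 269.0 in WT PTU/LID. Tie1 was highest in KO PTU/LID, at 41.0 to 47.6 CPM. The 4 Kupffer and macrophage markers with regions summed to 51.2 to 70.8 CPM in WT chow and 35.3 to 49.5 CPM in the other groups. Most of this sum was Spi1, at 40.3 to 55.1 CPM in WT chow. Cd68, Csf1r and Timd4 were low, and WT chow overlapped another group at each. Cd68 had 7.16, 2.81 and 6.53 CPM in WT chow and 3.35, 10.8 and 6.98 in WT PTU/LID. The 4 stellate markers with regions summed to 49.7 to 65.1 CPM in WT chow, 38.4 to 54.2 in WT PTU/LID, 29.5 to 41.8 in KO chow and 29.3 to 42.8 in KO PTU/LID. The lymphocyte and cholangiocyte lists separated the diets in both genotypes, as Ttr did: the 2 lymphocyte markers with regions summed to 99.1 to 103.0 CPM on chow and 50.2 to 67.9 on PTU/LID in WT, and to 105.9 to 142.9 and 74.2 to 75.7 in KO. The 3 cholangiocyte markers summed to 257.0 to 284.3 CPM on chow and 291.9 to 334.6 on PTU/LID in WT, and to 294.9 to 329.5 and 341.1 to 362.1 in KO. The part of cell composition in the results was not tested, and in bulk tissue fewer cells of a type and less signal per cell cannot be told apart.

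Per length, Alb was the most acetylated of the 4 genes and Serpina7 the least. Over all libraries the summed regions of Alb reached 38.6 CPM per kb, those of Ttr 29.4, those of Slc16a10 27.3 and the single Serpina7 region 17.8 on the gene-level scale. These lie at the 90.7, 69.9, 61.4 and 14.5 percentiles of all 11459 genes tested. In WT chow the order was Alb with 36.6 ± 4.78 CPM per kb, Slc16a10 with 26.7 ± 1.86, Ttr with 24.5 ± 1.07 and Serpina7 with 11.8 ± 3.49, and Slc16a10 and Ttr differed by less than the sum of their SDs. On PTU/LID the order of that pair turned: Ttr had 32.6 ± 1.08 and Slc16a10 26.2 ± 0.513 in WT, and 35.2 ± 1.37 and 27.4 ± 2.11 in KO. The lowest and highest region means among the members were 1.69 and 142.1 CPM, both at Alb. The libraries of each group and their spread are shown in the plot of summed levels.

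**Figure D1:**
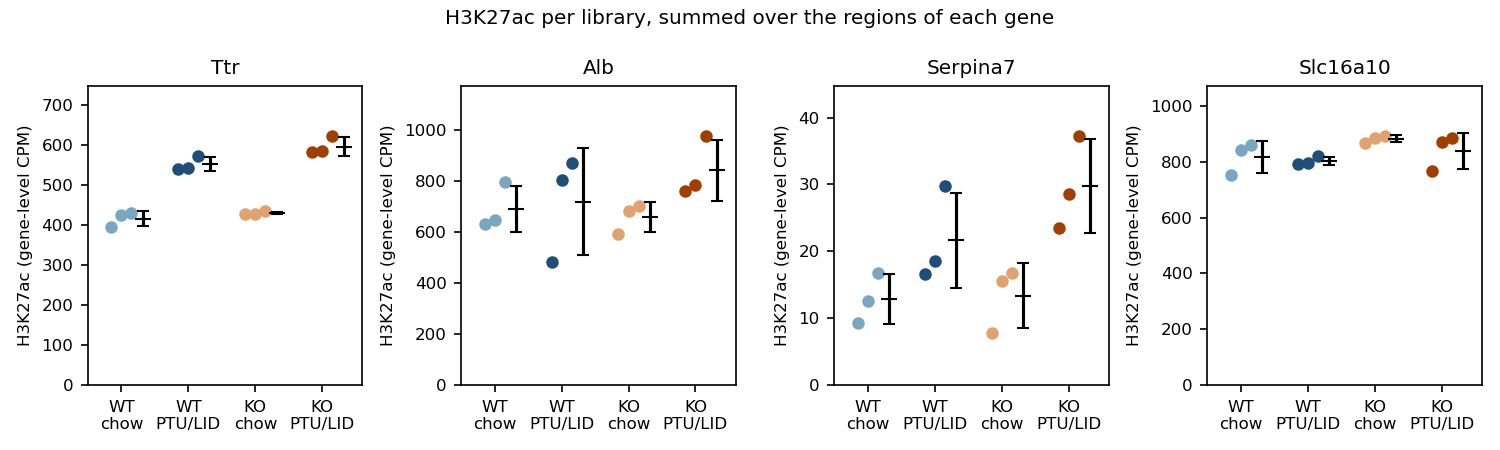
H3K27ac summed over the regions of Ttr, Alb, Serpina7 and Slc16a10 (y axis, gene-level CPM) in the 12 libraries, by genotype and diet (x axis); points are libraries, horizontal bars with whiskers are means ± SD of 3 libraries. The 3 PTU/LID points of Ttr lie above the 3 chow points in both genotypes, while 1 WT PTU/LID library of Alb lies at 481.1 CPM, below all others.

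Ttr gained acetylation on PTU/LID in both genotypes. The gene lies on chromosome 18 from 20664209 to 20674326 (mm10). Its summed level was 395.3, 429.2 and 423.8 CPM in WT chow and 543.7, 573.5 and 540.3 CPM in WT PTU/LID. In KO it was 434.0, 428.1 and 427.7 CPM on chow and 623.0, 583.9 and 581.9 CPM on PTU/LID. Every PTU/LID library lay above every chow library. The log2 fold change of diet was 0.41 ± 0.09 in WT (SE, adjusted p = 0.008) and 0.47 ± 0.09 in KO (adjusted p = 0.00145). The difference between these effects was 0.06 ± 0.13 (adjusted p = 0.912), and KO differed from WT by 0.05 ± 0.09 on chow (adjusted p = 0.829) and 0.11 ± 0.09 on PTU/LID (adjusted p = 0.568). Of the 4 genes, 1 passed the test of diet in WT and 2 in KO, against 7.81% and 7.59% of all genes tested; all were rises, which made up 3.82% and 4.36%. Non-overlap of this kind, PTU/LID above chow, held at 11.5% of genes in WT and 12.8% in KO. With only the regions within 2.5 kb of the gene's ends, neither diet effect on Ttr passed (0.34 with adjusted p = 0.131 in WT, 0.36 with adjusted p = 0.124 in KO). Among the libraries with the higher mitochondrial share, where WT PTU/LID is the single library Ptulid_WT_27ac_135, the WT effect was 0.40 (adjusted p = 0.0564, on the assumption that it varies like the other groups).

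The regions of Ttr moved largely together. In WT 15 of the 17 had a log2 fold change of diet above 0 and in KO 16 of 17, with medians of 0.41 and 0.39. Over all regions tested, 47.2% and 49.2% were above 0 and the medians were -0.03 and -0.01. The PTU/LID and chow libraries did not overlap, PTU/LID being higher, at 7 regions in WT and 8 in KO, against 9.38% and 11.7% of all regions. Of the 17, 1 passed the test in WT and 3 in KO, where 3.7% and 6.21% of all regions did and 1.81% and 3.28% rose. The strand of Ttr is not in the tables used, so distances are counted from its lower coordinate, negative outside the gene.

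The largest fitted rise at Ttr was in a group of regions between 20.5 and 23.6 kb outside the gene. The region 23.6 kb away (20639622 to 20641613, 1992 bp) had 40.5, 48.6 and 42.5 CPM in WT chow and 69.3, 85.3 and 90.9 in WT PTU/LID. In KO it had 42.5, 46.5 and 39.0 CPM on chow and 76.0, 80.6 and 82.5 on PTU/LID. No chow library of either genotype exceeded 48.6 CPM and no PTU/LID library fell under 69.3 CPM. The log2 fold change was 0.90 ± 0.16 in WT (adjusted p = 0.000621) and 0.90 ± 0.16 in KO (adjusted p = 0.00017), and the genotypes differed by -0.04 ± 0.16 on chow (adjusted p = 0.927). It passed without any single library. Within the libraries of higher mitochondrial share, where WT PTU/LID is only Ptulid_WT_27ac_135, the lowest of its group at this region, the WT value was 0.63 (adjusted p = 0.18). It was the only one of the 69 member regions that passed the diet test in WT.

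Beside it, the region 22.0 kb away (20641640 to 20642858) rose in KO from 32.8 ± 2.83 to 51.0 ± 4.76 CPM, a log2 fold change of 0.64 ± 0.17 (adjusted p = 0.0129). In WT its values were 29.1 ± 4.05 and 42.2 ± 3.55 CPM (0.53 ± 0.17, adjusted p = 0.0773), with no overlap between the diets. The region 20.5 kb away (20643200 to 20644183) rose in KO from 23.0 ± 1.30 to 36.5 ± 1.47 CPM (0.67 ± 0.18, adjusted p = 0.0165), and stood at 29.1 ± 2.90 and 38.2 ± 8.25 CPM in WT (0.39 ± 0.18, adjusted p = 0.232). The KO call at 22.0 kb ended without Chow_NCoRKO_27ac_122 (0.57, adjusted p = 0.0948) or Ptulid_NCoRKO_27ac_239 (0.56, adjusted p = 0.104) and with a term for the mitochondrial share (0.52, adjusted p = 0.0739). The call at 20.5 kb ended without Chow_NCoRKO_27ac_122, Chow_NCoRKO_27ac_190, Ptulid_NCoRKO_27ac_232 or Ptulid_NCoRKO_27ac_239 (0.62 to 0.69, adjusted p = 0.053 to 0.0882). These regions lie between Ttr and Dsg2, a desmosomal cadherin gene, and nearer to Ttr. Dsg2 itself rose in WT on PTU/LID (0.32 ± 0.10, adjusted p = 0.0393) and not by the test in KO (0.05 ± 0.09, adjusted p = 0.841); which gene the regions act on was not tested.

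Inside Ttr the strongest region, 2.5 kb in (20665387 to 20667976), had 82.0, 77.6 and 97.0 CPM in WT chow and 104.9, 128.5 and 109.0 in WT PTU/LID. In KO it had 88.4, 84.1 and 87.0 CPM on chow and 127.9, 113.2 and 98.5 on PTU/LID. The diets did not overlap in either genotype, but the fitted changes of 0.41 ± 0.16 (adjusted p = 0.141) and 0.39 ± 0.16 (adjusted p = 0.155) did not pass. The region over the lower-coordinate end (20663653 to 20665308) had 31.5 ± 4.36 and 43.8 ± 4.66 CPM in WT (0.49 ± 0.18, adjusted p = 0.114) and 33.6 ± 5.95 and 37.7 ± 0.638 in KO (0.16 ± 0.17, adjusted p = 0.686). One small region 10.5 kb outside came near the threshold for genotype on chow, with 5.0 ± 1.01 CPM in WT and 9.96 ± 2.8 in KO (0.96 ± 0.28, adjusted p = 0.0509); it was chosen after its values were seen. The plot of effects by distance sets these regions beside those of Alb and Slc16a10.

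**Figure D2:**
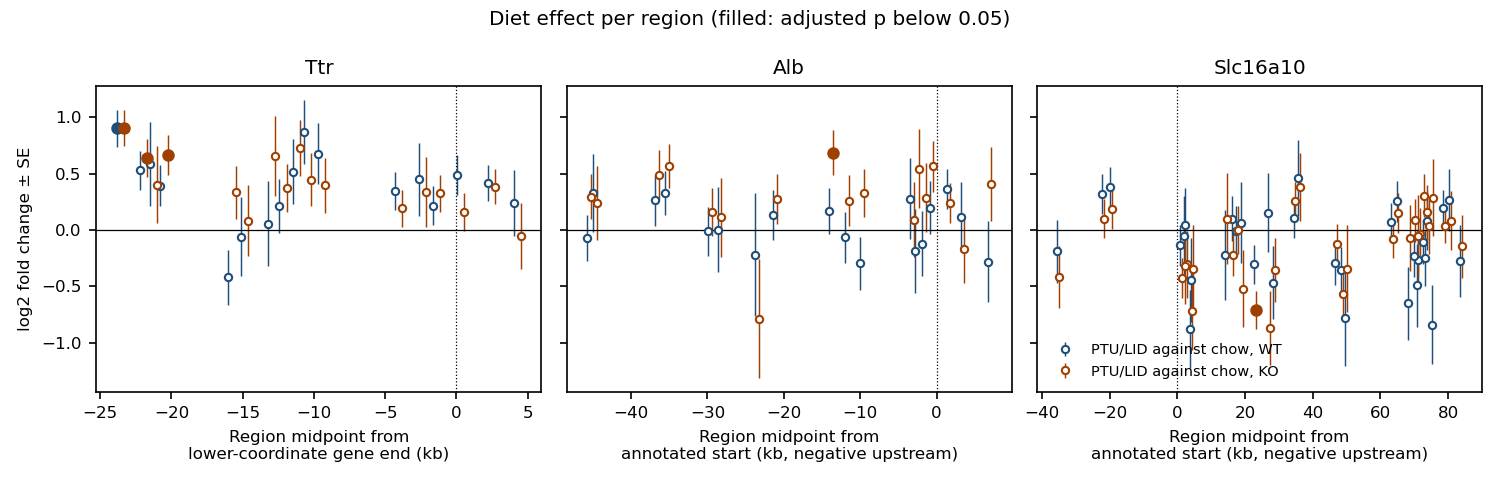
Log2 fold change of PTU/LID against chow with its SE (y axis) for each region of Ttr, Alb and Slc16a10 against the distance of its midpoint from the gene's start, or from the lower coordinate for Ttr (x axis, kb); blue is WT, brown is KO, and filled points have an adjusted p below 0.05. At Ttr 15 of 17 WT points and 16 of 17 KO points lie above 0, while at Slc16a10 13 and 14 of 33 do. Over all regions tested the shares are 47.2% and 49.2%.

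Serpina7, the gene of thyroxine-binding globulin, the carrier with the highest affinity for the hormone, lies on chromosome X from 139079249 to 139085236 on the minus strand and has 1 region, at its 5′ end (139084106 to 139085192, 1087 bp), ending 44 bases from the upstream sequence shown above. The region had 14.9, 11.04 and 8.43 CPM in WT chow and 26.6, 17.0 and 15.6 in WT PTU/LID. In KO it had 14.0, 14.9 and 7.03 CPM on chow and 20.5, 25.3 and 33.5 on PTU/LID. Every PTU/LID library lay above every chow library of both genotypes on this scale, by a narrow gap (15.6 against 14.9 CPM). PTU/LID lay above chow without overlap at 9.38% of all regions in WT and 11.7% in KO. The share that separated in both genotypes together was not counted. On the gene-level scale, built from the same region, the WT diets overlapped, with Ptulid_WT_27ac_280 at 16.58 CPM and Chow_WT_27ac_96 at 16.82. In KO the region rose 2.25-fold, a log2 fold change of 1.17 ± 0.25 (adjusted p = 0.00308). In WT the value was 0.80 ± 0.28 and did not pass (adjusted p = 0.0974), and the difference between the genotypes' diet effects was 0.36 ± 0.38 (adjusted p = 0.822). Genotype did not pass on either diet, at 0.09 ± 0.28 on chow (adjusted p = 0.908) and 0.45 ± 0.25 on PTU/LID (adjusted p = 0.381). In the gene-level fit the KO effect was 1.19 ± 0.28 (adjusted p = 0.0104), and this call ended without Chow_NCoRKO_27ac_190 (0.90, adjusted p = 0.0517) or Ptulid_NCoRKO_27ac_239 (0.99, adjusted p = 0.0709); the region's own call held without any single library but ended within the libraries of higher mitochondrial share (0.79, adjusted p = 0.193), where KO PTU/LID is only Ptulid_NCoRKO_27ac_211, the lowest of its group.

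A second region lies just upstream (139085352 to 139086312, 961 bp) and covers the first part of the printed Serpina7 sequence, the part farthest from the gene. Its midpoint is 596 bp beyond the Serpina7 start and 411 bp from the neighbouring 4930513O06Rik, so the rule gives it to that gene. It had 17.4, 15.2 and 11.2 CPM in WT chow, 19.7, 14.6 and 20.3 in WT PTU/LID, 12.9, 18.4 and 14.1 in KO chow, and 30.7, 24.2 and 30.8 in KO PTU/LID. The KO PTU/LID libraries stood above all others, an order whose share over all regions was not counted. The diet effect was 0.91 ± 0.21 in KO (adjusted p = 0.00373) and 0.34 ± 0.23 in WT (adjusted p = 0.432), with a difference of 0.57 ± 0.31 that did not pass (adjusted p = 0.585). Because Serpina7 is X-linked and sex is not in the labels, markers of sex were looked at. No region lay within 2 kb of Ddx3y, Kdm5d, Uty or Eif2s3y, and 2 regions lay on chromosome Y. The 2 regions at Xist summed to 36.2 to 44.7 CPM in WT chow and 36.7 to 54.8 in WT PTU/LID. In KO they summed to 40.1 to 47.1 CPM on chow and 49.4 to 56.0 on PTU/LID, without overlap, as at the Serpina7 region. The part of sex in the Serpina7 values was not tested.

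Alb, the gene of serum albumin, passed no test of diet or genotype as the sum of its regions. It lies on chromosome 5 from 90460870 to 90476602 on the plus strand, with 3 regions inside and 15 upstream. Its sum was 631.5, 645.4 and 794.0 CPM in WT chow and 481.1, 871.7 and 803.8 in WT PTU/LID. In KO it was 683.3, 592.0 and 700.7 CPM on chow and 976.3, 761.1 and 784.4 on PTU/LID. Ptulid_WT_27ac_135 was the lowest and Ptulid_NCoRKO_27ac_211 the highest of the 12, and the diets overlapped in WT. The diet effects were 0.06 ± 0.18 in WT (adjusted p = 0.886) and 0.35 ± 0.18 in KO (adjusted p = 0.294), and the genotype effects -0.07 ± 0.18 on chow (adjusted p = 0.88) and 0.22 ± 0.18 on PTU/LID (adjusted p = 0.561). Without Ptulid_WT_27ac_135, which enters the KO diet fit only through the shared spread, the KO diet effect was 0.35 and passed (adjusted p = 0.0403). Within the higher mitochondrial share the PTU/LID groups are these 2 extreme libraries alone, 1 against 1, which gives no check of genotype; within the lower share, 2 against 2, the genotype effect on PTU/LID was -0.12 (adjusted p = 0.37).

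Single Alb regions did differ. The region 9.8 kb upstream (90450647 to 90451590, 944 bp) was higher in KO than in WT on PTU/LID. It had 22.8, 26.2 and 25.6 CPM in WT chow and 11.9, 22.2 and 25.9 in WT PTU/LID, and in KO 32.5, 27.4 and 47.7 on chow and 57.0, 36.2 and 43.1 on PTU/LID. Every KO library lay above every WT library, by a narrow gap: the lowest KO value was 27.4 CPM and the highest WT value 26.2. The share of all regions that separate this way was not counted. The genotype effect was 1.15 ± 0.23 on PTU/LID (adjusted p = 0.00212) and 0.53 ± 0.23 on chow (adjusted p = 0.21), with an interaction of 0.62 ± 0.32 (adjusted p = 0.564). Leaving out 1 library at a time gave 0.90 to 1.37 on PTU/LID, all passing. Among the libraries of lower mitochondrial share, 2 against 2, the value was 0.72 (adjusted p = 0.00868); those of higher share, 1 against 1, differed by 2.25, with no replicate. This was the only one of the 69 regions that passed on PTU/LID between genotypes, where 3.86% of all regions passed and 3.17% were higher. Alb regulatory sequence is used in some transgenes that drive recombination in hepatocytes; the labels do not say whether the KO mice carry one, and its part in this region's counts was not tested.

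The region 13.9 kb upstream (90446442 to 90447554) had 33.0, 30.0 and 25.8 CPM in KO chow and 59.6, 41.1 and 42.9 in KO PTU/LID, a rise of 0.68 ± 0.20 (adjusted p = 0.0311). In WT it had 33.9, 37.5 and 47.8 CPM on chow and 29.3, 58.4 and 46.4 on PTU/LID, which overlapped (0.17 ± 0.20, adjusted p = 0.707). Its KO call was lost with a term for the mitochondrial share (0.56, adjusted p = 0.115) and without any of the 3 KO chow libraries, Ptulid_NCoRKO_27ac_211 or Ptulid_NCoRKO_27ac_239 (0.51 to 0.77, adjusted p = 0.053 to 0.16). Between these lies the strongest member region of all, 11.7 kb upstream (90447785 to 90450543), with means of 133.6 ± 35.9, 127.9 ± 49.8, 139.5 ± 19.5 and 167.3 ± 8.15 CPM in WT chow, WT PTU/LID, KO chow and KO PTU/LID; it passed no test. The region that overlaps the printed Alb sequence (90459718 to 90460689) had 39.8 ± 10.1, 45.7 ± 19.7, 35.5 ± 4.73 and 52.8 ± 6.15 CPM and passed none either (KO diet 0.56 ± 0.23, adjusted p = 0.161). In KO 16 of the 18 Alb regions had a diet effect above 0, with a median of 0.28, and in WT 10 of 18, with a median of 0.06. Over all regions tested, 49.2% in KO and 47.2% in WT were above 0. The difference between the diet effects passed at 0 of the 18.

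**Figure D3:**
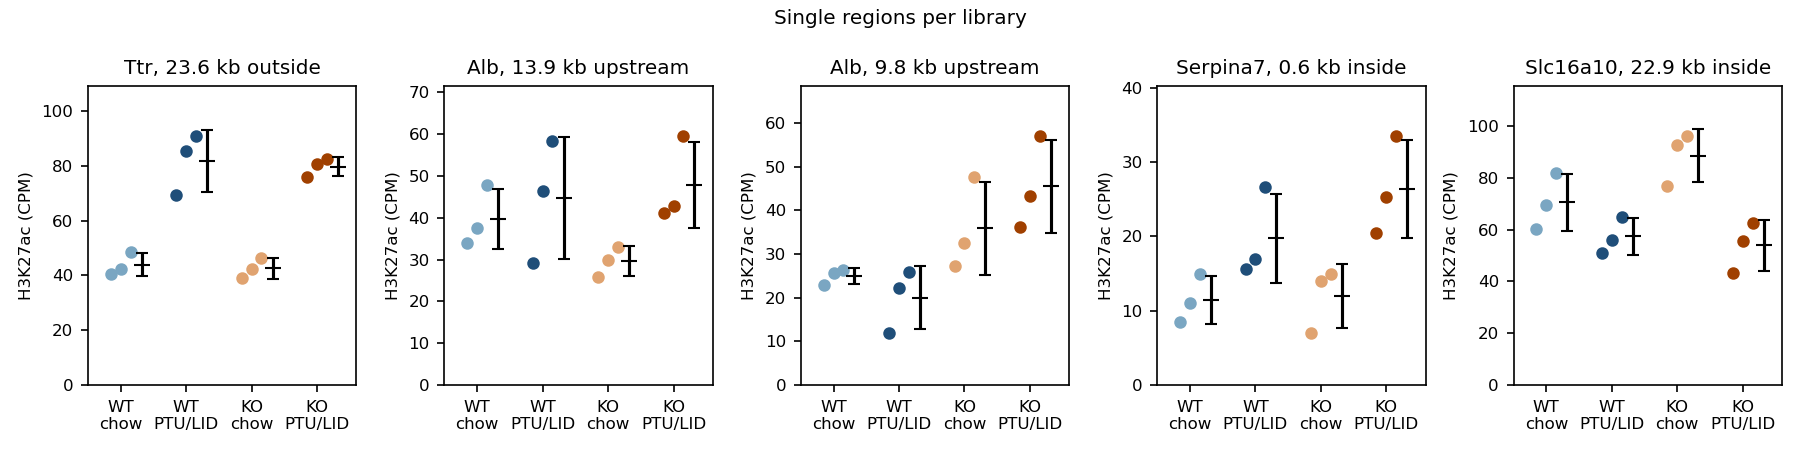
H3K27ac (y axis, CPM) of 5 single regions in the 12 libraries by genotype and diet (x axis); points are libraries and bars with whiskers are means ± SD of 3. The PTU/LID points of the Ttr and Serpina7 regions lie above the chow points in both genotypes (at Serpina7 the WT difference did not pass the test). PTU/LID lay above chow without overlap at 9.38% of all regions in WT and 11.7% in KO. All 6 KO points of the Alb region 9.8 kb upstream lie above all 6 WT points, by a narrow gap (27.4 against 26.2 CPM). The share of all regions that separate this way was not counted, and genotype on chow did not pass the test there. The Slc16a10 region is lower on PTU/LID in KO.

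Slc16a10 passed no test as the sum of its regions, and 1 region fell in KO. The gene lies on chromosome 10 from 40033532 to 40142270 on the minus strand, and 30 of its 33 regions are inside it. Its sum was 753.8, 859.1 and 844.0 CPM in WT chow, 795.6, 820.9 and 792.7 in WT PTU/LID, 893.8, 869.1 and 885.6 in KO chow, and 766.2, 884.7 and 870.3 in KO PTU/LID. The diet effects were -0.03 ± 0.09 in WT (adjusted p = 0.897) and -0.07 ± 0.09 in KO (adjusted p = 0.745), and the genotype effects 0.11 ± 0.09 on chow (adjusted p = 0.565) and 0.07 ± 0.09 on PTU/LID (adjusted p = 0.777). KO chow lay above WT chow in all 3 libraries, which holds for 14.6% of all genes. In both diet comparisons and in genotype on PTU/LID the groups overlapped. Diet effects were above 0 at 13 of 33 regions in WT and 14 of 33 in KO, against 47.2% and 49.2% of all regions tested.

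The region 22.9 kb inside Slc16a10 (40118097 to 40120587, 2491 bp) had 76.9, 96.2 and 92.6 CPM in KO chow and 43.2, 55.8 and 62.7 in KO PTU/LID. In WT it had 60.2, 69.6 and 82.0 CPM on chow and 51.1, 65.0 and 56.0 on PTU/LID. The diets separated in KO and overlapped in WT. The log2 fold change was -0.71 ± 0.17 in KO (adjusted p = 0.00598) and -0.30 ± 0.17 in WT (adjusted p = 0.35), and the difference of -0.41 ± 0.24 did not pass (adjusted p = 0.633). Leaving out each library gave -0.83 to -0.58, all passing. With it, 5 member regions rose and 1 fell on PTU/LID in KO, where 3.28% of all regions rose and 2.94% fell. The strongest Slc16a10 region, 78.8 kb inside (40061948 to 40065009), had 93.8 ± 2.75, 107.7 ± 1.83, 103.8 ± 5.37 and 106.3 ± 9.32 CPM in WT chow, WT PTU/LID, KO chow and KO PTU/LID and passed no test. The region nearest the start (40140299 to 40142128) had 35.2 ± 4.92, 31.8 ± 2.40, 39.1 ± 7.01 and 29.0 ± 1.67 CPM, with a KO diet effect of -0.43 ± 0.17 that did not pass (adjusted p = 0.156).

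**Figure D4:**
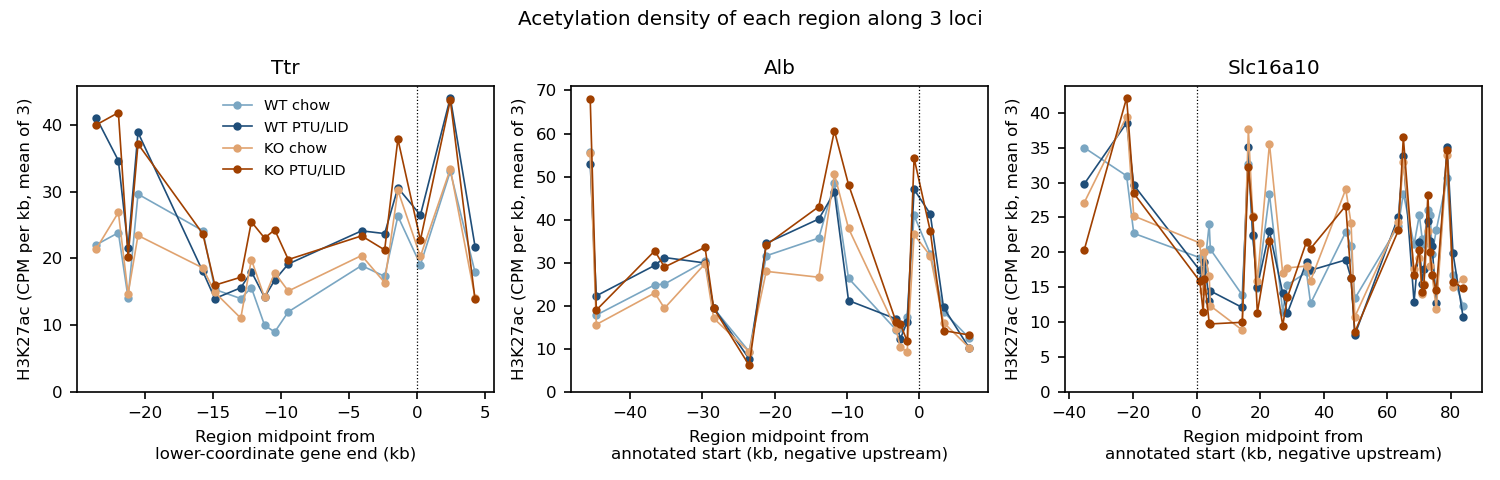
Mean H3K27ac of 3 libraries per region, divided by the region's length (y axis, CPM per kb), against the distance of its midpoint from the start, or from the lower coordinate for Ttr (x axis, kb), in the 4 groups at Ttr, Alb and Slc16a10. At Ttr the PTU/LID lines lie above the chow lines at the region 23.6 kb outside the gene and at the strongest region inside it.

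Genotype on chow separated no member region by the test: 0 of 69 passed in edgeR, where 2.43% of all regions did, with 8 at an unadjusted p under 0.05 and 1 passing in DESeq2. At gene level 0 of the 4 passed on chow and 0 on PTU/LID, against 4.1% and 6.67% of genes, and 0 had an unadjusted p under 0.05 or passed in DESeq2. The difference between the genotypes' diet effects passed at 0 of 69 regions in edgeR and 0 in DESeq2, with 3 at an unadjusted p under 0.05, and at 0 of the 4 genes, against 0.23% and 0.419% of all. A pass in one genotype and not in the other at Serpina7, Alb or Slc16a10 is therefore not a shown difference. The diet comparisons and the genotype comparisons share libraries in pairs.

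Among other genes that handle thyroid hormone, Dio1 and Dio3 changed with diet in both genotypes. Dio1, the deiodinase that activates and clears hormone in liver and a classic target of the hormone, fell on PTU/LID from 191.7 ± 10.5 to 50.02 ± 15.8 CPM in WT (log2 fold change -1.96 ± 0.19) and from 301.7 ± 44.0 to 49.0 ± 11.4 in KO (-2.64 ± 0.18), and was higher in KO than WT on chow (0.66 ± 0.17, adjusted p = 0.0363). Dio3, which inactivates the hormone, rose in WT (0.73 ± 0.17, adjusted p = 0.00905) and KO (0.99 ± 0.16, adjusted p = 0.000214). Iyd, which salvages iodide, rose in WT (0.87 ± 0.19, adjusted p = 0.00785), as did Crym, which binds the hormone in the cytosol (0.64 ± 0.16, adjusted p = 0.0169). At both genes the diets overlapped in KO. Iyd had 26.9, 25.3 and 28.3 CPM in KO chow and 15.8, 29.0 and 29.7 in KO PTU/LID. Crym had 65.5, 55.1 and 63.1 CPM in KO chow and 54.5, 73.2 and 66.3 in KO PTU/LID. Of the 9 tested genes of 10 on the list of hormone metabolism, 3 rose and 1 fell in WT, 1 rose and 1 fell in KO, and 1 was higher in KO on chow, where 7.81%, 7.59% and 4.1% of all genes passed; Dio2 had no region. Medians of the list were 0.11 in WT and -0.14 in KO, against -0.02 and -0.01 over all genes.

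The membrane transporters moved singly. Slco1a1, an organic anion transporter, fell in WT from 19.6 ± 5.63 to 6.47 ± 0.714 CPM (-1.58 ± 0.30, adjusted p = 0.0021) and was lower in KO than WT on chow (-1.05 ± 0.28, adjusted p = 0.0317). Slc7a8, a light subunit of amino acid exchangers, rose in WT (0.58 ± 0.18, adjusted p = 0.0493) and was lower in KO than WT on PTU/LID (-0.61 ± 0.18, adjusted p = 0.0352). At both genes the diets overlapped in KO. Slco1a1 had 11.5, 9.40 and 7.26 CPM in KO chow and 7.62, 7.18 and 3.24 in KO PTU/LID. Slc7a8 had 23.2, 27.4 and 26.3 CPM in KO chow and 22.3, 39.6 and 34.8 in KO PTU/LID. Beside Slc16a10, 11 of 12 listed transporters were tested: 1 rose and 1 fell with diet in WT, 1 rose in KO, 1 was lower in KO on chow, and 1 was higher and 1 lower in KO on PTU/LID. Over all genes, 7.81%, 7.59%, 4.1% and 6.67% passed in these comparisons.

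Of 8 other plasma proteins on the list, 1 passed for diet in WT and 0 in KO in edgeR, with 3 and 0 at an unadjusted p under 0.05; the shares over all genes were 7.81% and 7.59%, so 1 of 8 is near the background. Rbp4, the retinol-binding partner of transthyretin, rose in WT from 267.1 ± 20.3 to 380.2 ± 86.1 CPM (0.51 ± 0.14, adjusted p = 0.0291), while in KO it stood at 345.1 ± 27.6 and 367.3 ± 56.0 (0.09 ± 0.14, adjusted p = 0.779). Serpina6, the corticosteroid-binding relative of Serpina7, was higher in KO than WT on chow (0.61 ± 0.14, adjusted p = 0.0172). Among genes within 200 kb of a member, Dsg2 near Ttr is given above, Rassf6 beyond Alb rose with diet in WT (0.91 ± 0.13) and KO (0.40 ± 0.12) and was higher in KO than WT on chow (0.46 ± 0.13, adjusted p = 0.042). 4930513O06Rik beside Serpina7 has 1 region, the one just upstream of Serpina7 given above, so its values are not a further result. In the gene-level fit it rose with diet in KO (0.93 ± 0.20, adjusted p = 0.0033) and was higher in KO than WT on PTU/LID (0.69 ± 0.20, adjusted p = 0.0347). The region fit gave 0.64 ± 0.21 for genotype on PTU/LID, which did not pass (adjusted p = 0.0757).

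Over the 12 libraries, the gene-level log2 CPM most like that of Ttr was at Clhc1, Tectb and Ppfibp1 (Pearson r 0.97, 0.93 and 0.93), and most like that of Serpina7 at Hectd2, Fut10 and Fam189a1 (0.93, 0.91 and 0.91). For Alb they were Gys1, Setd4 and Cpsf7 (0.93, 0.91 and 0.90) and for Slc16a10 Exph5, Suclg1 and Gm6657 (0.91, 0.88 and 0.88). The libraries share groups and depth, and these values are given as a description with no test.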

How the data were processed

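H3K27ac ChIP-seq of mouse liver gave 12 libraries in 4 groups of 3; the 4 input libraries are not analysed here. What the authors deposited is a table of raw read counts, whole numbers, for 52645 regions shared by these libraries, with each region's position and length in base pairs. The submitters' processing notes list bedtools 2.26.0, MACS2 2.1.1, Picard 2.8.1, Bowtie2 2.2.1 and bcl2fastq 2.17.1.14, and mm10 as build; how duplicates and the merging of regions were handled is not given in the sources used here. Member regions held from 4 to 1153 counts in a library, which sets the precision of their values.

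Regions were assigned to genes of RefSeq GRCm38.p6. Exons and introns are not in the tables used, so regions are called inside or outside a gene only. Counts of regions, and counts summed per gene, were tested with edgeR 4.0.16 in R 4.3.3 (quasi-likelihood test with robust estimates, TMM, filterByExpr with a minimum count of 10, 1 mean per group, all 12 libraries) and adjusted by Benjamini-Hochberg over the 52606 regions or 11459 genes tested; adjusted p below 0.05 passed. The SE of a log2 fold change was its size divided by the root of edgeR's F. Region and gene CPM are scaled separately. Simulated counts with known changes were used to test the fits.

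The members, gene lists, tests and naming rules were chosen with earlier results of these data known. Named were the 4 genes, each gene's strongest region, the region nearest its start and every region that passed, the listed genes that passed (the 8 with the smallest p), neighbours within 200 kb that passed, and the 3 genes most like each member. Alternatives were other scalings (RLE, total counts, cyclic loess with limma 3.58.1), no filter, DESeq2 1.42.0, only the compared groups, no chrM regions, a term for or a split by a chrM share above 1.5%, regions within 10 kb or at gene ends within 2.5 kb, and leaving out each library. Values of 2 listed genes are not reported here.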

Additional observations from a re-analysis of the deposited data

How the results depend on the processing

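No paired analysis was possible because no replicate number is shared between the H3K27ac groups. The cause of each change below was not tested. Within the higher chrM share each PTU/LID group is 1 library, assumed to vary like the others, and within the lower share WT chow is 1 library, so these splits are weak checks. Counts of member regions that passed for diet in WT, 1 in the reported fit, were 2 with cyclic loess, 2 with DESeq2, 0 and 2 within the libraries of higher and lower chrM share, 0 with regions within 10 kb (which leaves 46 member regions), 0 with regions at gene ends (11), and 1 to 3 leaving out each library. For diet in KO, 6 became 2 within 10 kb, 1 at gene ends and 3 to 8 leaving out each library, lowest without Chow_NCoRKO_27ac_122 or Ptulid_NCoRKO_27ac_239. For genotype on chow, 0 became 1 with RLE, total counts, cyclic loess or DESeq2, 3 with the chrM term, 2 with only the compared groups, 2 within the higher chrM share and 0 to 1 leaving out each library; over all regions 1278 passed in the reported fit, 1294, 2117, 856 and 1201 under those scalings and DESeq2, 4008 with the chrM term, 2523 with the compared groups and 2342 within the higher share. For genotype on PTU/LID, 1 became 2 with the chrM term, 7 within the higher and 7 within the lower share, 0 at gene ends and 1 to 2 leaving out each library; over all regions 2032 became 3380, 400 and 4001 in the first 3 of these. The interaction, 0, became 3 within the higher share. Of member genes, diet in WT went from 1 to 0 within the higher share, 2 within the lower and 0 at gene ends. Diet in KO went from 2 to 1 at gene ends and 1 to 3 leaving out each library, with 1 without Chow_NCoRKO_27ac_190 or Ptulid_NCoRKO_27ac_239. Genotype on PTU/LID went from 0 to 1 within either share, and the interaction from 0 to 1 within the higher share. Total counts moved the median log2 genotype effect of all genes from -0.01 to -0.12 on chow and from -0.02 to -0.13 on PTU/LID, and the genes called higher and lower from 291 and 179 to 161 and 521 on chow and from 612 and 152 to 349 and 383 on PTU/LID.

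Signs turned at values that passed no test. Under total counts and cyclic loess the genotype effect became -0.069 and -0.097 on chow and -0.0040 and -0.089 on PTU/LID for Ttr, and -0.0071 and -0.055 on chow and -0.052 and -0.17 on PTU/LID for Slc16a10; that of Serpina7 on chow became -0.034 under total counts. The chrM term gave -0.031 for Alb diet in WT, 0.016 for Alb genotype on chow and -0.0075 for Serpina7 genotype on chow. Within the higher share, Alb diet in WT was -0.41 and genotype on chow 0.042, Serpina7 genotype on chow -0.15, genotype on PTU/LID -0.37 and interaction -0.22, and Slc16a10 genotype on PTU/LID -0.076; within the lower share Alb genotype on PTU/LID was -0.12. Regions within 10 kb gave a Ttr interaction of -0.039, and regions at gene ends a Slc16a10 genotype effect on PTU/LID of -0.10. Leaving out each library gave -0.10 to 0.28 for Alb diet in WT, -0.13 to 0.045 for Alb genotype on chow, -0.14 to 0.38 for Serpina7 genotype on chow, -0.084 to 0.0068 for Slc16a10 diet in WT and -0.097 to 0.020 for its interaction. Of the other alternatives, 262 of the values without left-out libraries kept their direction and call, 10 lost it and 5 gained it.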
